A study of Drosophila melanogaster with 2 samples.

Results

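The members are the start sites of long non-coding RNA (lncRNA) genes of Drosophila melanogaster, and the question put to each was whether the protein CG15073 was recorded within 500 bp of it. A gene was taken as a lncRNA gene when its name in the Ensembl copy of the FlyBase annotation starts with "lncRNA:", and each distinct transcript start of such a gene gave a window reaching 500 bp to either side. The annotation holds 1947 such genes, of which 1944 lie on the 6 main arms of the assembly and give 2063 windows, out of 23584 start sites of 18164 genes of every class on these arms. A protein-coding start lay within 500 bp of 272 of the 2063, and the other 1791 are called lone lncRNA starts here. Binding was read by ChIP-seq, in which an antibody pulls a protein out of sheared chromatin and the DNA that comes with it is sequenced. The embryos came from 1 transgenic line that stably expresses CG15073 with enhanced green fluorescent protein (eGFP) at its C-terminal end, and an anti-GFP antibody recovered the fusion. They were of mixed sex and 0 to 24 h old, and sonication gave fragments of 200 to 800 bp. The 2 libraries, biological replicates 3 and 4 in the labels, form 1 group that shares this line, stage and antibody, and no second condition was analysed here.

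A lncRNA is a transcript as long as many messenger RNAs that has no recognised protein product. In flies the best known examples are roX1 and roX2, which guide the dosage compensation complex to the male X chromosome, and Hsromega, which organises nuclear speckles after heat shock. Most of the others carry only a CR number and have no described role, so the coding gene beside each is named as a landmark here, and a landmark is not a target. CG15073 is a zinc finger protein of the ZAD family, a large insect family of proteins with a zinc-finger-associated domain and an array of zinc fingers, many of which bind DNA. Since whole embryos were used, binding in few cells of a type and weak binding in many cannot be told apart.

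The authors' irreproducible discovery rate (IDR) list, named for a method that compares peak ranks between replicates, holds 1445 peaks on the dm6 build. Being in it does not mean a like rank in each replicate. A partner within 200 bp among the strongest 1445 of both replicates was found for 909 of its peaks, or 62.9%. A summit is the base of highest signal in a peak, and the deposited signal is the strength that the authors' peak caller gave, from 66.5 to 9689 over the IDR peaks with a median of 96.5. Of the 2063 lncRNA starts, 54 had an IDR summit within 500 bp, and these belong to 54 genes. Counting the strongest summit within 500 bp of each start gives 54 distinct summits. The sequences in the next paragraph are the start regions of 5 of the 6 lone lncRNA starts whose IDR summit lay within 100 bp, the closest placement of peak and start. They are shown because summit and start fall in the same short stretch, so the bases under the peak can be read directly.

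Letters come from the Release 6 assembly as given by RefSeq, run 5' to 3' on the strand of the lncRNA, and have the annotated start base in capitals. Positions are on dm6.
CR31840, chr2L:14024016-14024159, minus strand: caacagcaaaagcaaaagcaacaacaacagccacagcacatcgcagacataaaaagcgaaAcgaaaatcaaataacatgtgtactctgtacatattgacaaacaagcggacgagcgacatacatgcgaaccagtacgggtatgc
CR44222, chr2L:223459-223607, plus strand: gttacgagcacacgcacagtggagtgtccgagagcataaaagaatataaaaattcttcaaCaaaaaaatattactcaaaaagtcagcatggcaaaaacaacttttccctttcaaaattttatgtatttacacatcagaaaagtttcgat
CR45588, chr3R:5053678-5053863, minus strand: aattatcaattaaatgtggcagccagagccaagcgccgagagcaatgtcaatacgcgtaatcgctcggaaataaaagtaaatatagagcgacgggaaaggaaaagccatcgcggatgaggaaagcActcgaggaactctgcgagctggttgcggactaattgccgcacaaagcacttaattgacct
CR43949, chr3L:16021417-16021566, minus strand: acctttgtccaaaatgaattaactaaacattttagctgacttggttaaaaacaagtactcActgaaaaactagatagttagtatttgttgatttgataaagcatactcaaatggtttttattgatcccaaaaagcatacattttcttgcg
CR46095, chr3R:24607134-24607331, plus strand: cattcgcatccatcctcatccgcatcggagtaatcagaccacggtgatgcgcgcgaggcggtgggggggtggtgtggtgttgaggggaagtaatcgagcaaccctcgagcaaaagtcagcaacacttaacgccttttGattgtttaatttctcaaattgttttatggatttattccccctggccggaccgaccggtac
The summit lay 23 bp downstream of the start for CR31840, 28 bp downstream for CR44222 and 29 bp downstream for CR43949. For CR45588 and CR46095 it lay 65 bp and 77 bp upstream.

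A further set holds the 101 bp around 4 IDR summits at lone lncRNA starts, chosen for signals of 143 to 383, and the capital marks the summit base. They are the 3 of highest signal and CR43626, whose signal is lower than that of some peaks not shown.
CR44977, chr2L:19159583-19159683, minus strand: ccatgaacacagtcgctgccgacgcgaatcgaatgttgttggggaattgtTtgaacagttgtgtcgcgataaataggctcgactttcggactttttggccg
CR44619, chrX:12751337-12751437, plus strand: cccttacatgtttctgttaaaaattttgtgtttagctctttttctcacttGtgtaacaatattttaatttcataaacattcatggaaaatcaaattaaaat
CR31044, chr3R:29214395-29214495, plus strand: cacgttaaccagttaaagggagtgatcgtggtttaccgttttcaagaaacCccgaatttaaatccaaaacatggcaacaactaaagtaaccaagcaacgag
CR43626, chr3L:3250226-3250326, plus strand: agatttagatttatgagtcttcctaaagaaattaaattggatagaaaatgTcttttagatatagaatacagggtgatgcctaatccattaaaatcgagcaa
The summit of CR44977 lies in an intron of the coding gene brat, that of CR44619 in an exon of the lncRNA gene Vinr, that of CR31044 between genes, and that of CR43626 in an exon of its own gene.

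The 54 lncRNA starts with an IDR summit are 2.62% of 2063, with an exact 95% binomial interval of 1.97 to 3.40%. Over all annotated start sites the share was 5.16%, and over the 19253 protein-coding starts it was 5.87% (5.55 to 6.22%). The share at lncRNA starts was below both, and its interval did not reach either value. However, 1 peak can count for several coding starts. An IDR summit was found at 1131 coding starts, while 692 IDR peaks had a coding start alone within 500 bp and 17 had a lncRNA start too. The 54 lncRNA starts had 54 distinct summits, so the coding share and its interval count some peaks more than once. Lone lncRNA starts gave 43 of 1791, or 2.40% (1.74 to 3.22%), and those with a coding start nearby gave 11 of 272, or 4.04% (2.04 to 7.12%). Intervals here cover counting error only, and differences between classes of positions were not tested, since positions are not replicates and there is 1 group.

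Protein-coding genes lie more densely than lncRNA genes, so the like class to set beside the lone lncRNA starts is the coding start with neither a lncRNA start nor a start of another coding gene within 500 bp. Of 14397 such coding starts, 565 had an IDR summit, or 3.92% (3.61 to 4.25%), which lies above the interval of the lone lncRNA starts. Coding starts with a start of another coding gene nearby stood at 12.1% (11.1 to 13.0%), the highest share of any class. In that class 1 peak can count for the starts of both genes. Coding starts with a lncRNA start nearby gave 17 of 302, or 5.63% (3.31 to 8.86%). Antisense RNA genes, a separate class of non-coding gene in this annotation, gave 3 of 346 lone starts, or 0.867% (0.179 to 2.51%), and 13 of 198 starts with a coding start nearby, or 6.57% (3.54 to 11.0%). Among both kinds of non-coding gene the share was thus higher beside a coding start, but the 2 lncRNA intervals overlap.

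**Figure D1:**
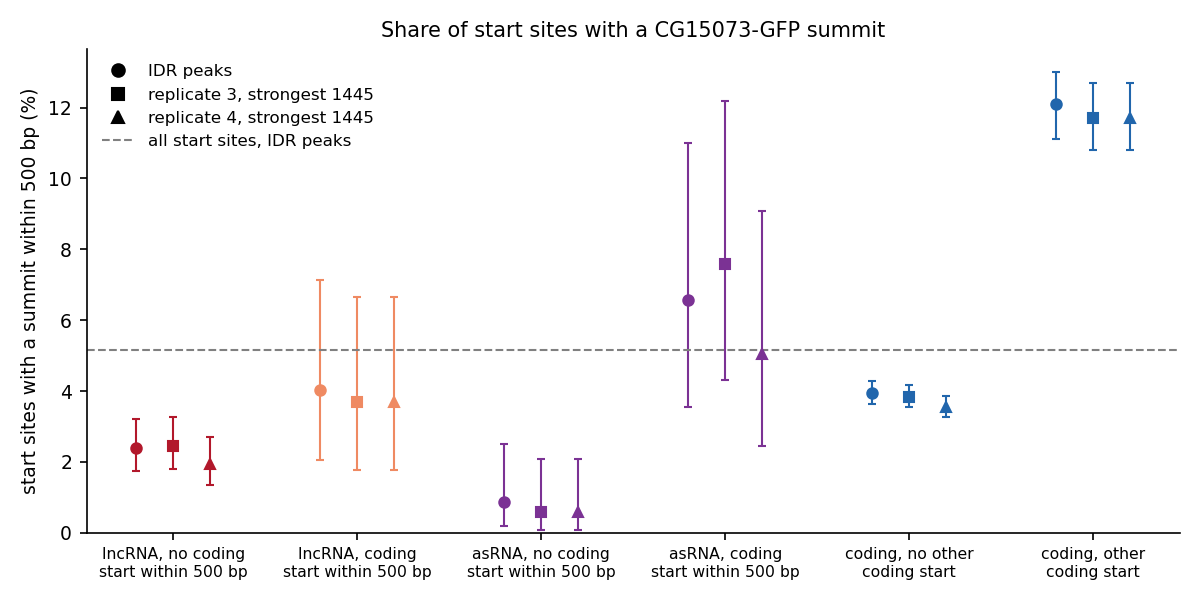
Share of start sites, in percent, with a CG15073-eGFP summit within 500 bp, by class of start site, for the IDR peaks and for the strongest 1445 peaks of each replicate. Points are shares, bars exact 95% binomial intervals, and the dashed line is the 5.16% of all start sites for the IDR peaks; lone lncRNA starts sit between 1.95 and 2.46%, below the line in each list.

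In the strongest 1445 peaks of each replicate, lncRNA starts again had a lower share than coding starts. Among the strongest 1445 peaks of replicate 3, 54 lncRNA starts had a summit, or 2.62%, beside 5.05% of all start sites and 5.72% of coding starts. In replicate 4 the count was 45, or 2.18%, beside 4.77% of all start sites and 5.49% of coding starts. A summit from both strongest parts fell at 33 lncRNA starts, 26 of them lone, and each of these 33 also had an IDR summit. The IDR method compares peak ranks of these same replicates, so that overlap is no separate support.

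Coding genes have more annotated starts, 1.41 per gene against 1.06 for lncRNA genes, and starts of a gene can share a peak. Counted by gene, 54 of 1944 lncRNA genes had an IDR summit, or 2.78% (2.09 to 3.61%), beside 5.68% of all annotated genes. Of 13945 coding genes, 941 did, or 6.75% (6.34 to 7.18%). Neighbouring coding genes can still share a peak, so counting by gene does not remove repeated peaks.

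The relaxed list that the authors made from both replicates together holds 23030 peaks. It placed a summit at 468 lncRNA starts, or 22.7% (20.9 to 24.6%), beside 28.8% of all start sites and 30.6% (30.0 to 31.3%) of coding starts. Coding starts were thus 1.35 times as often marked in the relaxed list and 2.24 times as often in the IDR list. Among starts with a relaxed summit, 11.5% (8.79 to 14.8%) of the lncRNA starts also had an IDR summit, against 19.2% (18.2 to 20.2%) of the coding starts and 14.9% (13.8 to 16.1%) of the coding starts with neither neighbour. The whole replicate lists, of 29999 and 29998 peaks, mix peaks with background and did not give the same order. Replicate 3 marked 27.7% (25.8 to 29.7%) of lncRNA starts, beside 39.7% of all start sites and 42.1% (41.4 to 42.8%) of coding starts. Replicate 4 marked 26.5% (24.6 to 28.4%), beside 24.95% of all start sites and 25.8% (25.2 to 26.4%) of coding starts, so there the lncRNA share was not lower. Lone lncRNA starts in replicate 4 stood at 26.5% (24.5 to 28.6%) and coding starts with neither neighbour at 24.2% (23.5 to 24.9%). No summit in any of the 4 lists fell at 1138 lncRNA starts.

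The peaks at lncRNA starts did not stand out in strength. Their signals ran from 67.4 to 410, with a median of 96.0 beside 96.5 over all IDR peaks. The strongest ranks 77 among the 1445. Counted by peak, where a start can have more than 1 summit in its window, 38 IDR peaks had a lncRNA start and no coding start within 500 bp of the summit, 17 had both, 692 had a coding start alone and 698 had neither. Median signals were 102 for the 38 and 99.3 for the 692. A partner among the strongest 1445 of both replicates, within 200 bp, was found for 23 of the 38, or 60.5% (43.4 to 76.0%), and for 64.6% (60.9 to 68.2%) of the 692. When the IDR list was split by signal into 4 equal parts, 10, 17, 14 and 14 summits from the strongest to the weakest part had a lncRNA start, while 195, 187, 168 and 159 had a coding start.

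**Figure D2:**
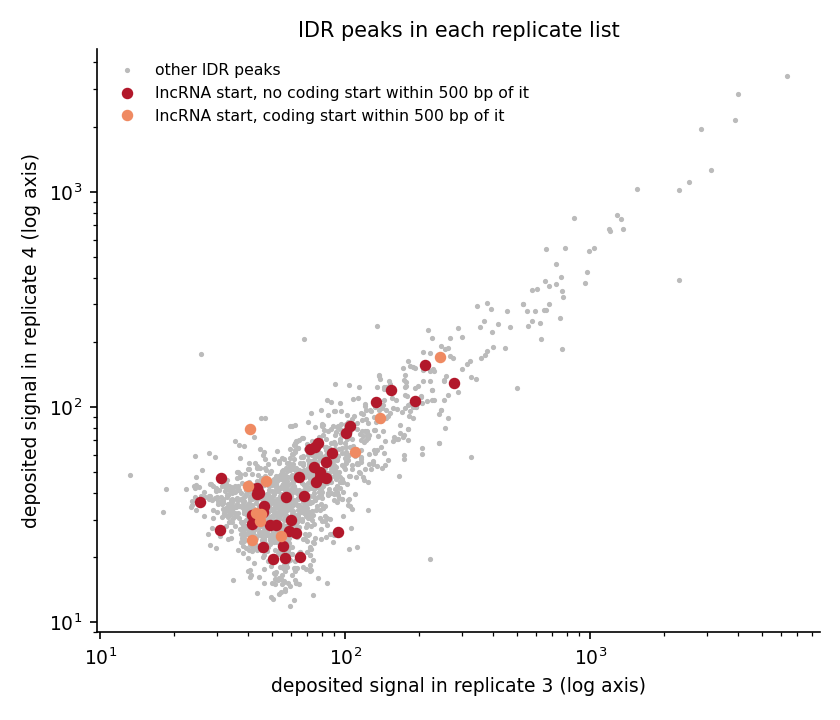
Deposited signal of each IDR peak in replicate 3 (horizontal, log axis) and in replicate 4 (vertical, log axis), for peaks with a summit within 200 bp in both replicate lists. Red points are peaks at lone lncRNA starts, orange points those at lncRNA starts with a coding start nearby, grey points all other IDR peaks; the coloured points lie within the grey cloud, up to 277 in replicate 3 and 170 in replicate 4.

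Around coding starts with neither neighbour, summits gathered just upstream. The share with an IDR summit peaked at 1.96% in the 250 bp before the start, and averaged 1.02% over the 250 bp bins within 500 bp against 0.435% in those from 500 to 3000 bp away, a ratio of 2.34. Around lone lncRNA starts the highest bin, from -500 to -251 bp, held 14 starts or 0.782%, and the mean of 0.614% within 500 bp was 1.53 times the outer mean of 0.402%. From -500 bp to 499 bp the 4 bins held 14, 11, 7 and 12 starts. Farther out, the bins from -2250 to -2001 bp and from -1250 to -1001 bp each held 13 starts. Their 0.726% was above the mean within 500 bp. The ratio was 1.71 in replicate 3 and 1.36 in replicate 4, where the highest bin lay over 1000 bp upstream, and 2.29 and 2.16 at the coding starts. The mean near lone lncRNA starts was thus above the outer mean in each list, by a smaller ratio than at coding starts. Neither difference was tested. In the bins from 500 to 1000 bp away, the mean for IDR summits was 0.516% at lone lncRNA starts, close to their 0.614% within 500 bp. At the coding starts it was 0.511%, beside 1.02% within 500 bp.

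**Figure D3:**
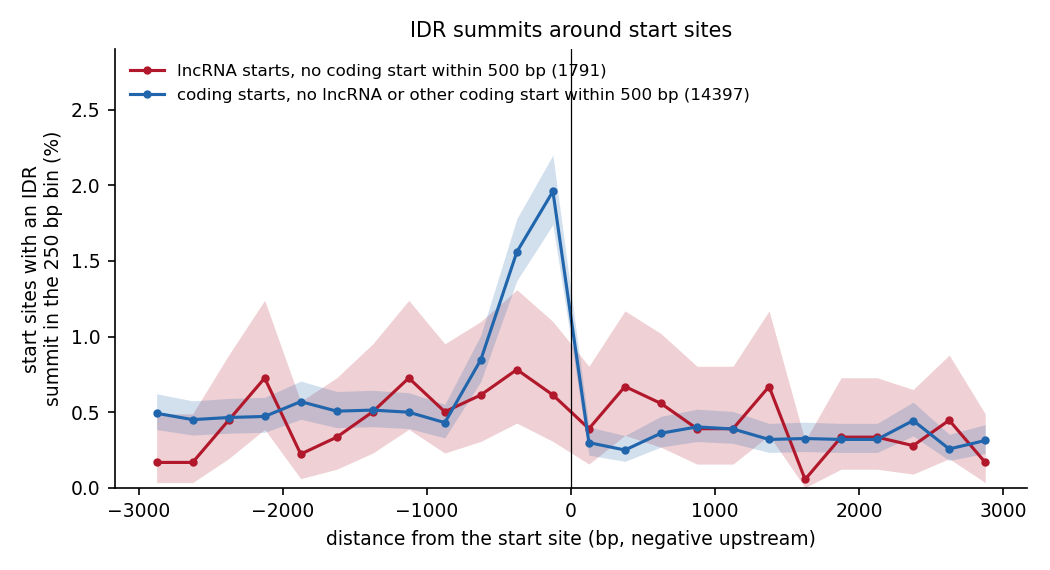
Percent of start sites with an IDR summit in each 250 bp bin, against distance from the start site in bp (negative upstream), for lone lncRNA starts (red) and coding starts with neither neighbour (blue). Bands are exact 95% binomial intervals; the blue line rises to 1.96% just upstream of the start, and the red line stays at or below 0.782% throughout.

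Summits lay on both sides of the lncRNA starts. At the 43 lone lncRNA starts, 24 summits lay upstream and 19 downstream, with a median of -88.0 bp and quartiles of -318 and 285 bp. The upstream share was 55.8% (39.9 to 70.9%), against 86.2% (83.1 to 88.9%) at coding starts with neither neighbour, where the median was -203 bp. The share upstream at lone lncRNA starts thus lay below the interval of the coding starts. Within 100 bp lay 6 of the 43 summits, or 14.0% (5.30 to 27.9%), close to the 13.3% at the same coding starts. Over 250 bp away lay 26 of the 43, or 60.5%, beside 43.7% at these coding starts, with overlapping intervals. In replicate 3 alone the median moved to 34.5 bp, downstream, and in replicate 4 it was -105 bp.

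**Figure D4:**
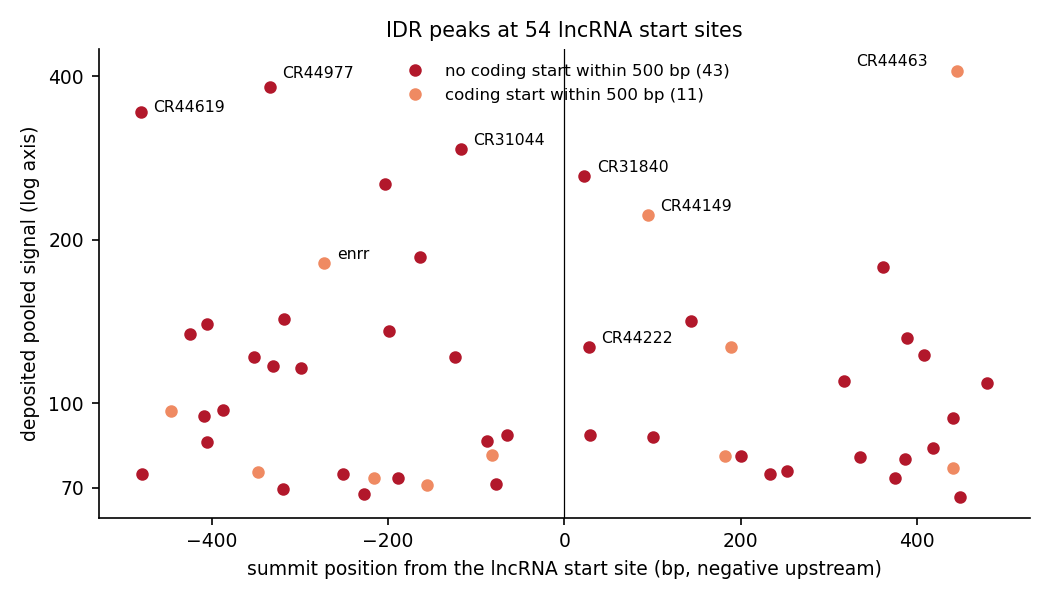
Position of the IDR summit relative to the lncRNA start in bp (negative upstream) against the deposited pooled signal (log axis), 1 point for each of the 54 lncRNA starts with an IDR summit. Red points are the 43 lone starts and orange points the 11 with a coding start nearby; points spread over both sides of the start, 30 upstream and 24 downstream.

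The share was lower farther from the nearest coding start. It was 4.04% within 500 bp, 3.78% (7 of 185) beyond that and up to 1000 bp, 2.66% (21 of 789) beyond that and up to 5000 bp and 1.84% (15 of 817) beyond 5000 bp, with intervals of 1.53 to 7.64%, 1.65 to 4.04% and 1.03 to 3.01% for the last 3. Neighbouring intervals overlap. The 272 lncRNA starts with a coding start nearby were also split by orientation. An IDR summit was found at 6 of 184 that diverge from it (3.26%), 2 of 43 that face it (4.65%) and 3 of 45 on the same strand (6.67%). Starts outside any coding gene gave 35 of 1495 (2.34%), those inside a coding gene on its opposite strand 11 of 360 (3.06%), and those inside on its strand 7 of 202 (3.47%), with overlapping intervals.

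By arm, the share of lncRNA starts ran from 1.29% (0.474 to 2.78%) on 3L to 4.17% (2.24 to 7.02%) on 2R. Values between these were 1.98% on 3R, 2.89% on 2L and 3.83% on X, and chromosome 4 had 0 of 16, which allows up to 20.6%. Each of these intervals overlaps its neighbours in that order. Coding starts stood at 6.26% on 3L and 5.25% on 2R, so their order of the arms was not that of the lncRNA starts. LncRNA genes with and without an IDR summit had like structures. Median lengths were 660 and 662 bp, and single exons were found in 68.5% (54.4 to 80.5%) and 65.9% (63.7 to 68.0%).

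The strongest peak at a lone lncRNA start lay 334 bp upstream of CR44977 (FBgn0266312), which is encoded on 2L in an intron of brat, the gene of a translational repressor that limits neural stem cell growth. Its summit at chr2L:19159633 had a pooled signal of 383, a signal of 277 in replicate 3 and of 130 in replicate 4. It ranked 66 and 101 in the 2 replicate lists, and the coding start of brat is 1093 bp from the summit. CR44619 (FBgn0265830) on X had a summit 480 bp upstream with 344 pooled, 212 in replicate 3 and 157 in replicate 4, inside an exon of the lncRNA gene Vinr. A further IDR summit of signal 289 lay 508 bp downstream of the same start, just outside the window, so IDR peaks stood on either side of it. CR31044 (FBgn0051044) on 3R had 294 pooled, 192 in replicate 3 and 107 in replicate 4, with the summit 117 bp upstream and 5727 bp from the start of eEF1gamma, a translation elongation factor subunit. CR31840 (FBgn0051840) on 2L had 262 pooled, 154 and 120, with the summit in its own exon.

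Psc encodes a Polycomb group protein of the silencing complex PRC1, and CR44339 starts 4373 bp from its start. The peak there had 254 pooled, 133 in replicate 3 and 106 in replicate 4. CR44810 starts 4372 bp from slbo, the C/EBP factor needed for border cell migration in the ovary, and had 186 pooled, 104 and 81.9. CR44120, 516 bp from SLC5A11, a sodium-coupled solute transporter, had 178 pooled, 101 and 75.6. It counts as a lone start by a small margin, and its summit was 154 bp from the coding start, the closest of the 5 lone starts whose summit fell within 500 bp of a coding start. The other 38 of the 43 had their summit farther than 500 bp from any coding start.

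Signals from 87.6 to 143 were found at the next 18 of the 25 strongest. CR43626 had 143 pooled with 87.9 in replicate 3 and 61.0 in replicate 4. Several of these starts lie within introns of coding genes, on the opposite strand. CR46102 inside LpR2, a lipophorin receptor, had 142 pooled, 75.2 and 65.3. CR44222 inside kis, a chromatin remodeller of the CHD family, had 127 pooled, 78.8 and 47.1. CR44867 inside beat-Ib, of the beaten path family of immunoglobulin proteins known from axon guidance, had 134 pooled, 83.0 and 47.0, and CR44868 in the same gene had 69.7 pooled, 65.1 and 20.2. CR46036 inside osa, a subunit of the Brahma chromatin remodelling complex, had 122 pooled and 75.6 in replicate 3. No summit within 200 bp was found for CR46036 in replicate 4, and it was the lone case of this among the 54. CR44478 inside Socs36E, an inhibitor of JAK/STAT signalling, had 94.1 pooled, 58.7 and 26.6.

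CR45997 lies inside mbl, a splicing regulator, on its strand, and had 123 pooled, 74.2 and 52.8. Others stood beside well-known coding genes. CR45668, 872 bp from Act5C, a cytoplasmic actin gene, had 136 pooled, 71.8 and 63.9. CR43644, 747 bp from E(spl)m3-HLH, a Notch-responsive repressor, had 116 pooled, 64.8 and 47.3. CR44276, 4164 bp from the septin gene pnut, had 109 pooled, 67.7 and 38.8. Both replicates held these 3 among their strongest 1445.

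CR44366 had 140 pooled, CR44676 132, CR44651 122, CR45595 117, CR44380 110, CR44498 97.1 and CR45588 87.6, and CR45251 lay between CR44498 and CR45588. Of the 25 strongest, 21 were among the strongest 1445 of both replicates, and 8 were over 5000 bp from a coding start. The choice by pooled signal favours recurrence in both replicates. Matched in the same way, within 200 bp of the IDR summit, 27 of all 43 lone starts recurred in both. Of all 1445 IDR peaks, 909 did, or 62.9%. CR45588 had no coding start within 20000 bp, and its signals were 31.1 in replicate 3 and 46.6 in replicate 4. The other 18 lone starts had pooled signals from 67.4 to 87.5. They include starts near Notum, which inactivates Wnt proteins (CR43949, 87.5), inside ena, an actin regulator (CR43399, 85.2), inside Dif, an NF-kB factor of Toll signalling (CR44409, 82.9), inside ChAT, which makes acetylcholine (CR46265, 79.8), and near nej, the fly CBP acetyltransferase (CR42657, 74.0). Among the 54, only CR44365, with 68.2 pooled, was outside the strongest 1445 in both replicates.

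At the 11 starts with a coding start nearby, peak and coding promoter cannot be told apart by distance. CR44463 (FBgn0265656) on 2R had the strongest peak of any lncRNA start, with 410 pooled, 243 in replicate 3 and 170 in replicate 4. It diverges from CG8079, while the summit lay 445 bp downstream and 133 bp from the start of mRpL41, a mitochondrial ribosomal protein. CR44149 had 222 pooled, 139 and 88.7, beside brwl. The lncRNA enrr (FBgn0286870) shares its annotated start base, X 523226, with elav, the neuronal RNA-binding protein that marks fly neurons, and had 181 pooled, 109 and 61.9. Its summit lay 272 bp upstream in an intron of arg, the arginase gene, so this peak is as much at the elav promoter as at enrr. CR44209 starts 9 bp from Cyt-b5, an electron carrier of the endoplasmic reticulum, and had 127 pooled. It is the widest split between replicates in this set, ranking 1507 in replicate 3 with 40.6 and 217 in replicate 4 with 78.8.

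The other 7 had pooled signals from 70.7 to 97.0. CR42862 (97.0) shares its start with CG33229, and CR45321 (80.5) diverges from Camta, a calmodulin-binding transcription factor. CR45463 (80.0) faces Daxx, a histone chaperone homologue, CR45618 (76.0) diverges from prtp, and CR45593 (74.7) faces Ama, an immunoglobulin protein, with its summit in an exon of Ama. CR44392 (72.8) shares the strand of tweek, and CR44589 (70.7) diverges from CG6770. Of the 11, 7 were among the strongest 1445 of both replicates, beside 62.9% of all IDR peaks. At 4 of the 11 the summit was nearer to a coding start than to the lncRNA start, at 6 the reverse, and at enrr the distances were equal.

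Of all 54 summits, 21 lay between genes, 17 in non-coding genes only, 15 in an intron of a coding gene and 1 in a coding gene's exon. The body of the lncRNA gene itself held 22 of the 54. The window's edge passed through a continuous range: CR42657, CR44619 and CR44276 were just inside at 479, 480 and 480 bp, with signals of 74.0, 344 and 109. Just outside lay summits of 289 at 508 bp from CR44619, 68.5 at 517 bp from CR43626 and 68.4 at 522 bp from CR43126.

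Among 38 lncRNA genes that have a name other than a CR number, with 56 starts, the only IDR summit was that of enrr. A pooled relaxed summit was found for 9 of the 38, and no summit in any list for 20. A summit in the whole list of replicate 3 was found for 11 and in that of replicate 4 for 12, with 5 in both. Over all 1944 lncRNA genes, 2.78% had an IDR summit and 23.1% a pooled relaxed summit. The whole lists marked 28.1% of them in replicate 3 and 26.9% in replicate 4. The counts for the named genes were near these shares, so they do not set the named genes apart. Hsromega had the highest relaxed signal after enrr, 58.6 at rank 1789, with 34.3 in replicate 3 and 13.2 in replicate 4. Near that stood flam, the piRNA cluster that silences retrotransposons in ovarian follicle cells, with 53.7 pooled and 34.8 in replicate 3, and no summit in replicate 4. Both lie outside the IDR list, whose weakest peak has 66.5.

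The Bithorax complex transcripts had weak relaxed peaks. At 2 starts of iab8, pooled signals were 40.5 and 40.0, and bxd had 30.2 with 14.3 in replicate 3. No summit was found at iab4. Vinr had 37.9 pooled, TS9 33.9, sphinx 30.6 and TS2 24.9. The dosage compensation RNAs had no IDR or pooled relaxed summit. The 3 starts of roX1 had no summit in any list, the closest IDR summit being 5941 bp away. For roX2 a summit was found in replicate 3 alone, with 25.4 at rank 4165. Irar and mimi likewise had a summit in replicate 3 alone, and TS3, TS4, TS16, TS25, noe and cherub in replicate 4 alone, with signals from 12.1 to 20.3. No list gave a summit at acal, yar, CRG or let7C, the last of which is the host of the let-7 microRNA.

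At lncRNA starts, the strongest relaxed summit outside the IDR list fell at CR45292 (65.1 pooled, 40.1 in replicate 3, 26.3 in replicate 4). Next came CR46090 inside the ETS factor gene pnt (64.4, 30.7 and 32.4). CR44022 inside Ptp99A, a receptor phosphatase, followed (63.8, 67.2 in replicate 3 and no summit in replicate 4). Both starts of CR30055 beside the corepressor gene Sin3A shared the next (59.1, 38.0 in replicate 3 and no summit in replicate 4). Their pooled ranks were 1502, 1530, 1557 and 1763, and all had less than the weakest IDR signal of 66.5.

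Sequence under the summits was AT-rich. In 201 bp windows, median GC was 32.8% at the 43 lone lncRNA summits, 34.3% at the 692 summits with a coding start alone, and 35.3% at all IDR summits. Windows centred on all lncRNA starts had 41.3% and those on all coding starts 42.3%, so the medians at summits were below those at starts. The TATA sequence TATAAA was found in 18 of the 43 windows, or 41.9% (27.0 to 57.9%), beside 38.6% at coding summits, 34.3% at all IDR summits and 25.5% at all lncRNA starts. Every motif was searched on both strands, and a match is a description, not a binding site.

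Other motifs were near the share of all IDR summits. The homeodomain core TAATTA was in 7 of 43 (16.3%, all IDR summits 16.5%), GAGAG in 10 (23.3%, all 23.5%) and the Initiator core TCAGT in 13 (30.2%, all 32.6%). The Zelda sequence CAGGTAG and the CTCF core AGNNGGCGC were each in 1 of 43, beside 1.25% and 3.60% of all IDR summits. The DREF element TATCGATA and the promoter core GGTCACAC were in 0 of 43, which allows up to 8.22%. Over all IDR summits they were in 1.31% and 1.04%, so the 0 of 43 does not show a lack of either. All coding starts held TATCGATA in 6.45% and GGTCACAC in 5.68%, and all lncRNA starts in 0.921% and 0.582%. At the 11 summits with a coding start nearby, TATAAA was in 3, TAATTA in 4, TCAGT in 4, GAGAG in 1 and the CTCF core in 1.

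A few matches are printed in place with 15 bases on either side, motif in capitals, on the strand of the lncRNA. They are a pair of TATA sequences that lie shortly upstream of a start, both CTCF cores and the only Zelda sequence among the 54 windows.
TATA of CR31044, chr3R:29214514-29214549, plus strand: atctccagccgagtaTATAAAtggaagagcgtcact
TATA of CR44222, chr2L:223488-223523, plus strand: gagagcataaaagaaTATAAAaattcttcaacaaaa
CTCF core of CR43838, chrX:20760521-20760559, minus strand: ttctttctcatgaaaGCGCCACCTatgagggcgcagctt
CTCF core of CR44392, chr2L:16888364-16888402, plus strand: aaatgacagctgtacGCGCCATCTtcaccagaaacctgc
Zelda sequence of CR45251, chr3L:11350133-11350169, minus strand: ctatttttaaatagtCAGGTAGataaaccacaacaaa
At CR31044 the capitals run from 33 to 28 bp upstream of the start, the usual place of a TATA box, and at CR44222 from 16 to 11 bp upstream. The CTCF cores are the reverse complement of the letters searched. At CR43838 the core lies 409 to 417 bp downstream of the start, and at CR44392 128 to 120 bp upstream. At CR45251 the Zelda sequence covers -411 to -405 bp, with the summit at -408 bp.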

How the data were processed

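The 2 libraries form 1 group of biological replicates per the labels. The authors deposited dm6 peak lists for each replicate, for both together and after IDR; each holds a deposited signal and a deposited −log10 q-value per peak. All 1445 IDR peaks recur in the pooled list with equal signal. The aligner, peak caller, IDR threshold and scale of the signal were not found in the labels or file headers, so each is not given in the sources used here. Read depth is unknown, and the control was not analysed here. The p column was a placeholder and the dm3 lists were not used.

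Start sites came from Ensembl release 115 (BDGP6.54), without transposable element insertions; 3 lncRNA genes off the 6 arms were left out. Summits were matched to starts in Python 3.11.15 (pandas 2.3.3, numpy 2.4.6, scipy 1.17.1, figures matplotlib 3.10.9), and summits within 200 bp in different lists were taken as the same. Shares have exact 95% binomial intervals; no test was run. Tested on simulated data, 100 of 100 placed summits were found at lncRNA starts. Signals were read within a list only, since how lists were scaled is not stated.

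Members, lists and motifs were chosen with earlier results of these data known. Named were the 25 strongest lone starts, up to 15 with a coding start nearby and every lncRNA gene without a CR number that has a summit. A few well-known genes were added, with the 5 lncRNA starts that have the strongest relaxed summits outside the IDR list. Also named were 3 summits on each side of the window edge. CR44868, CR44365, iab4, CR43949, CR43399, CR44409, CR46265, CR43838 and CR46095 were named after their values were seen. The alternatives are distance, peak list, start definition and each replicate alone.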

Additional observations from a re-analysis of the deposited data

How the results depend on the processing

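Of 66 recomputed values, 32 stayed inside the interval of the main value, which is easier where that interval is wide. Some of these could not move. Counting coding starts within 1000 bp as nearby leaves the shares of all lncRNA starts, coding starts and lncRNA genes unchanged by construction. With summits within 200 bp, the share with an IDR summit was 0.969% of lncRNA starts, 0.838% of lone ones, 1.84% of those with a coding start nearby, 3.36% of coding starts and 1.03% of lncRNA genes. Within 1000 bp, lncRNA starts gave 4.31%, lone ones 4.08%, coding starts 7.70% and lncRNA genes 4.27%. The stronger 722 IDR peaks gave 1.31% of lncRNA starts, 1.23% of lone ones, 1.84% of those with a coding start nearby, 3.22% of coding starts and 1.39% of lncRNA genes. The pooled relaxed list gave 22.7%, 21.9%, 27.9%, 30.6% and 23.1% in the same order. The whole relaxed lists, added after the data were seen, gave 27.7%, 26.1%, 38.6%, 42.1% and 28.1% in replicate 3, and 26.5%, 26.5%, 26.1%, 25.8% and 26.9% in replicate 4. Counting any base of an IDR peak gave 3.49% of lncRNA starts, 3.24% of lone ones and 6.74% of coding starts, and the outermost 5' end of each gene gave 5.54% of coding starts. Wider windows, looser lists and whole peaks raise each share by construction.

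Leaving out each replicate in turn gave 2.18 to 2.62% of lncRNA starts, 1.95 to 2.46% of lone ones, 3.68% in both cases for those with a coding start nearby, 5.49 to 5.72% of coding starts and 2.31 to 2.78% of lncRNA genes. The median position at lone starts ran from -105 to 34.5 bp. Both values lie within the interval of the main median, -227 to 144 bp, so its side of the start is not settled. The share of coding starts was 0.97 times that of lncRNA starts in the whole list of replicate 4, the only setting here where it was lower; the cause was not tested. In the other settings it was from 1.35 times in the pooled relaxed list to 3.47 times within 200 bp. No paired analysis was possible because the series holds 1 group. The small number of lncRNA starts with an IDR summit limits every split of them.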
